A study of Homo sapiens with 12 samples.

Results

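The promoters of long noncoding RNA (lncRNA) genes were examined for H3K4me3 in BON1 cells, a line derived from a human pancreatic neuroendocrine tumor. A lncRNA gene entered when GENCODE, on the GRCh37 build, gave it the type lncRNA on chromosomes 1 to 22 or X and its most 5′ annotated end lay over 2.5 kb from the 5′ end of every protein-coding transcript. That rule kept 14226 of 18592 annotated lncRNA genes and left aside 4366 whose own mark cannot be told apart from that of a nearby coding gene. They form part of a background of 38690 gene 5′ ends, 20098 of them protein-coding. The control cells carried the BON1/TGL/pQ vector and the compared cells were BON1/TGL/HA-Bcl-xL, which overexpress an HA-tagged form of Bcl-xL, an anti-apoptotic protein. Both lines thus share the BON1/TGL parent, and the labels name 1 line of each kind and give 500000 cells per condition. H3K4me3 or a nonspecific IgG was profiled by CUT&RUN, in which an antibody tethers a nuclease that cuts out the chromatin around it. Peak lists of 11 of the 12 labelled libraries were used: 3 H3K4me3 libraries of control cells, 2 of HA-Bcl-xL cells (replicates 2 and 3) and 3 IgG libraries of each line. Replicate 1 of H3K4me3 in HA-Bcl-xL cells was not analysed here. The labels do not say whether replicates came from separate cultures, so p-values below measure only the spread between these libraries.

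Trimethylation of lysine 4 on histone H3 is laid down around the start sites of genes that are transcribed or poised, mainly at promoters rich in CpG dinucleotides. lncRNA are transcribed like messenger RNA but do not encode proteins, and many are made in few cell types and at low levels. Some act in the nucleus on chromatin or splicing, some bind proteins or microRNA in the cytoplasm, and others serve mainly as hosts from which small nucleolar RNA or microRNA are cut.

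The promoter sequences of 6 lncRNA are shown because they span the patterns described below, with CpG dinucleotides in capitals. Each runs 5′ to 3′ along the lncRNA strand, from 250 bases before the 5′ end to 50 bases into the gene, as read from GRCh37. NORAD (chr20:34638891-34639190, minus strand) and DANCR (chr4:53578242-53578541, plus strand) carried a peak in all 5 H3K4me3 libraries and hold 17 and 22 CpG. MIR7-3HG (chr19:4768793-4769092, plus strand) carried a peak in all 5 with only 4 CpG. SKOR1-AS1 (chr15:68131168-68131467, minus strand), with 18 CpG, carried one within 1 kb in the 3 control libraries alone. Its nearest HA-Bcl-xL peaks began just outside that window, at -1379 and -1380 bases (upstream negative). The summits at SKOR1-AS1, at -845 to -886 bases, and those at DANCR lie outside the stretch shown. DLX6-AS1 (chr7:96643351-96643650, minus strand), with 3 CpG, carried no peak within 1 kb. ENSG00000289901 (chr13:110076630-110076929, minus strand), with 1 CpG, carried a peak in every H3K4me3 and every IgG library.
NORAD: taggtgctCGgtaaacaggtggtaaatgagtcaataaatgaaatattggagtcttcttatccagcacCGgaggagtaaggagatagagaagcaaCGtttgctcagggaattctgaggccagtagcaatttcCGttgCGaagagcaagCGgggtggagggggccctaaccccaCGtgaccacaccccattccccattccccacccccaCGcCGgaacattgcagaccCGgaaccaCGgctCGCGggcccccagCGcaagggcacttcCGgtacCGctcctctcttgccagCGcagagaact
DANCR: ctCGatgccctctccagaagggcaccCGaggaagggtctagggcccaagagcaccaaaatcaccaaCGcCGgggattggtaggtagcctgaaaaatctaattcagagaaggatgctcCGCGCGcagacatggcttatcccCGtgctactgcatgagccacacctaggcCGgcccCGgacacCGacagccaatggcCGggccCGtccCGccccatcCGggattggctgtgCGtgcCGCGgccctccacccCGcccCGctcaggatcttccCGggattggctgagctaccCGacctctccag
MIR7-3HG: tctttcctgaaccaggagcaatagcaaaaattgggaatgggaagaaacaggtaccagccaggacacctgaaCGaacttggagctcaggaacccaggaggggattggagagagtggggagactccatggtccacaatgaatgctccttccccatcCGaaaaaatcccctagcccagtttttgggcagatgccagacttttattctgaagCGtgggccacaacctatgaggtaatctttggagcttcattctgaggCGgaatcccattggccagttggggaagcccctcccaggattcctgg
SKOR1-AS1: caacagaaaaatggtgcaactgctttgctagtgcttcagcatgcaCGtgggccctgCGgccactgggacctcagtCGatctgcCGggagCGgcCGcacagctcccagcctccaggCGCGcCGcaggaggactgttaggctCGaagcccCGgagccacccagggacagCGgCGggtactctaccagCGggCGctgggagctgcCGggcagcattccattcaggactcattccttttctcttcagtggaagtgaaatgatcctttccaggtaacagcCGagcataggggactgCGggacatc
DLX6-AS1: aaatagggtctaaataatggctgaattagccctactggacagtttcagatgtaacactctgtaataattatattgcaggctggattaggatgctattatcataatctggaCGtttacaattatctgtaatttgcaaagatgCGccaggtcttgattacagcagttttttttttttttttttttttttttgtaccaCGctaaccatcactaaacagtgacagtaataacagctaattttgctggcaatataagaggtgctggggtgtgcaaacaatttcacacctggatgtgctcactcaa
ENSG00000289901: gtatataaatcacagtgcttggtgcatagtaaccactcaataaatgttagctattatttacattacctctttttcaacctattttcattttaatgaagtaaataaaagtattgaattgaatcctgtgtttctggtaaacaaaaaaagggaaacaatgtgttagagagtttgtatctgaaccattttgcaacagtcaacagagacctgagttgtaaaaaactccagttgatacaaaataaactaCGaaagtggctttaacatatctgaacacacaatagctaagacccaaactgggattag

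lncRNA promoters carried H3K4me3 far less often than coding promoters in every library. A peak with at least 1 base within 1 kb of the 5′ end was found at 639, 488 and 407 lncRNA promoters in control replicates 1, 2 and 3, which is 4.49%, 3.43% and 2.86% of them. It was found at 605 and 561, or 4.25% and 3.94%, in HA-Bcl-xL replicates 2 and 3. Over all gene 5′ ends the same call was made at 27.7%, 22.1% and 19.1% in the control libraries and at 26.1% and 25.0% in the HA-Bcl-xL libraries, so the lncRNA shares lay well below that background. At protein-coding promoters alone the share ran from 28.2% to 40.5%, which is 8.98 to 9.87 times the lncRNA share of the same library. The lncRNA left aside for lying close to a coding end resembled coding genes, with 30.1% to 44.6% marked. The log2 ratio of the lncRNA to the coding share averaged -3.22 (9.31-fold fewer) and was negative in 5 of 5 libraries. An exact sign-flip permutation test, two-sided, gave p = 0.0625, the smallest that 5 libraries allow, and 0.3 after adjustment over 6 comparisons.

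**Figure D1:**
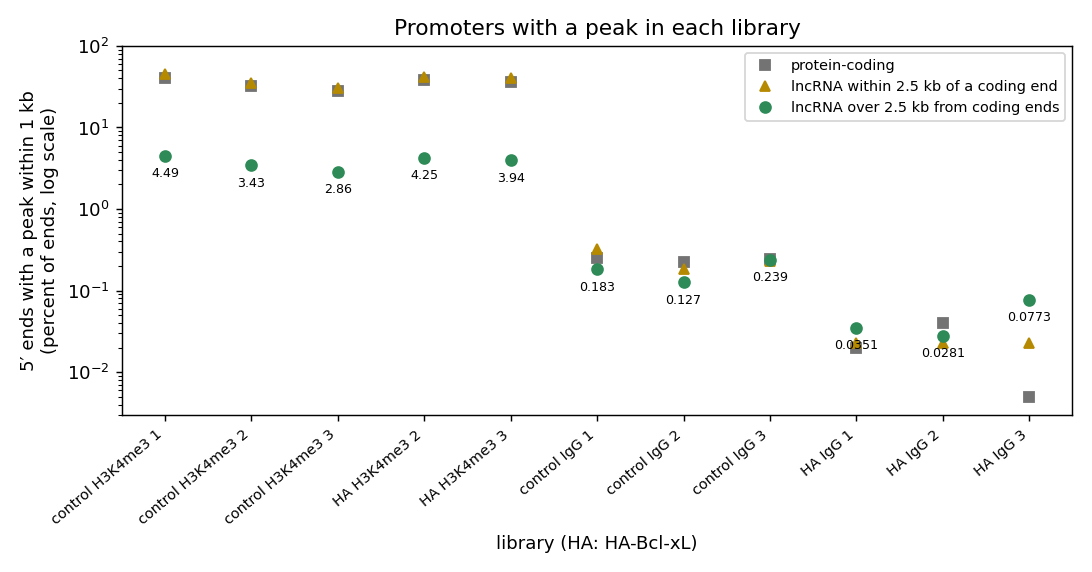
Percent of gene 5′ ends with a peak within 1 kb (log axis) in each of the 11 libraries, for lncRNA over 2.5 kb from coding ends (circles, with their values), lncRNA closer than that (triangles) and protein-coding genes (squares). The circles lie between 2.86% and 4.49% in H3K4me3 and between 0.0281% and 0.239% in IgG, and only in H3K4me3 are they far below the squares.

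The lists themselves differed in length, and the lncRNA counts moved with it. Control replicates 1, 2 and 3 held 17687, 12138 and 10237 H3K4me3 peaks, HA-Bcl-xL replicates 2 and 3 held 16363 and 15478, and the IgG lists held 239 to 2106. The lists give no read totals, so depth is known only through the number of fragments at each summit, solved from the deposited fold and p-value. The lists do not state if these numbers stand for whole fragments or for single reads. They are called fragments throughout. The median was 9 to 12 fragments in H3K4me3 lists and 3 to 6 in IgG lists. In each H3K4me3 list 3.90% to 4.07% of peaks lay within 1 kb of a lncRNA 5′ end, against 1.08% to 1.91% in 5 IgG lists and 4.60% (11 of 239 peaks) in IgG replicate 3 of HA-Bcl-xL cells. The stretches within 1 kb of a peak covered 0.605% to 0.923% of the genome, and the share of lncRNA promoters with a peak was 4.65 to 4.92 times that. The same ratio was 1.10 to 1.99 in 5 IgG lists and 4.78 in IgG replicate 3 of HA-Bcl-xL cells, which is within the H3K4me3 range but rests on 11 promoters. As a check of the cell type, 8 of 13 neuroendocrine marker genes carried a promoter peak in at least 1 H3K4me3 library, CHGA in 1 only. In all 5 libraries 4 did (CHGB, NEUROD1, SCG2 and SCG3), while INSM1, ENO2, FEV and SSTR2 were among those with none. All 5 epithelial markers carried one in at least 1 library, against 0 of 5 mesenchymal and 0 of 4 leukocyte markers. Of the epithelial markers 3 were marked in all 5 libraries, and KRT19 in 1 only. Of all coding promoters, 48.3% were marked in at least 1 library and 21.4% in all 5. The marker counts were not tested against these shares.

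IgG gave few calls at lncRNA promoters. There were 26, 18 and 34 in control IgG replicates 1, 2 and 3 (0.183%, 0.127% and 0.239%, against 0.235%, 0.184% and 0.24% over all gene ends), and 5, 4 and 11 for HA-Bcl-xL replicates 1, 2 and 3 (0.0351%, 0.0281% and 0.0773%, against 0.0258%, 0.0336% and 0.0336%). The H3K4me3 counts did not overlap the IgG counts in either line. With 1 added to each count, the geometric mean in H3K4me3 was 19.2 times that in IgG in control cells (log2 4.27, exact permutation p = 0.1, the smallest possible, adjusted 0.3) and 82.0 times in HA-Bcl-xL cells (log2 6.36, exact permutation p = 0.2, the smallest possible, adjusted 0.4). The IgG lists of HA-Bcl-xL cells were shorter (239 to 262 peaks) than those of control cells (1665 to 2106), and a difference between the 2 ratios was not tested. With stricter calling few IgG calls were left. At a −log10 q of at least 5 there were 2 to 4 per IgG library against 283 to 504 in H3K4me3, with lists cut to equal length within each antibody 3 to 11 against 407 to 445, and with at least 5 fragments 2 to 6 against 368 to 583. Ratios to counts this low depend on the 1 that was added. They were log2 6.94, 6.51 and 7.11 in control and 6.97, 6.04 and 6.61 in the other line under these settings, so the ratio of HA-Bcl-xL cells was slightly larger under the first setting and smaller under the other two. IgG peaks showed no preference for coding over lncRNA promoters like that of H3K4me3, the ratio of coding to lncRNA shares being 0.0643 to 1.77.

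Over the 5 H3K4me3 libraries, 907 lncRNA promoters (6.38%, against 33.4% of all gene ends) carried a peak in at least 1 library and 273 (1.92%, against 14.3%) in all 5. Many of these ends are close together: the 907 lie at 759 separate places and the 273 at 217 when ends within 1 kb are counted once. A peak in a single library was the commonest outcome among marked lncRNA, at 278, followed by 273 in all 5, 129 in 2, 118 in 4 and 109 in 3. Of the marked lncRNA, 30.1% were marked in all 5 libraries, against 44.2% of marked coding promoters. The recurrent ones had higher peaks. The median number of summit fragments was 5 for lncRNA marked in 1 library, 7 in 2, 7 in 3, 9 in 4 and 13 in all 5.

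**Figure D2:**
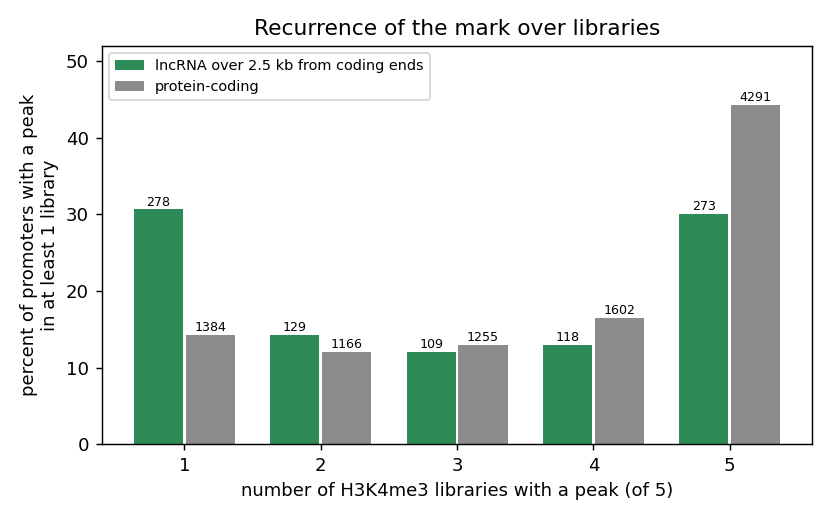
Percent of marked promoters (bars, with the number of promoters above each) by the number of H3K4me3 libraries with a peak, for lncRNA and protein-coding genes. The lncRNA bars are highest at 1 and at 5 libraries (278 and 273 promoters), whereas the coding bars are highest at 5.

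Over all promoters with a peak in a given library, lncRNA medians were 9 to 11 summit fragments and 129 to 174 bases under peaks. Coding medians were 10 to 13 fragments and 144 to 213 bases. Among the 273, the signal was near that of coding promoters also marked in all 5, a choice that keeps the higher peaks in both sets. Median summit fragments were 16, 12 and 10 in control replicates 1, 2 and 3 and 14 and 14 for HA-Bcl-xL replicates 2 and 3, against 18, 13, 11, 15 and 15 at the 4291 coding promoters marked in all 5. The coding median was 1.09 times the lncRNA median on average, and the lncRNA median was the lower in 5 of 5 libraries (exact sign-flip permutation p = 0.0625, the smallest possible, adjusted 0.0625 over 5 further measures). The median length under peaks in the window was 168 to 278 bases for lncRNA and 169 to 297 for coding genes, lower in 5 of 5 libraries by 1.08 times on average with the same p. Summits clustered around the annotated end. Over the 5 libraries, 22.0% of lncRNA summits fell in the 100 bases before the 5′ end and 11.4% in the 100 bases after it, against 24.5% and 9.69% at coding promoters. Between 44.3% and 48.4% of lncRNA summits per library lay within 250 bases of the end, against 45.7% to 47.3% for coding. The median summit lay at -5 to 17 bases from a lncRNA end and 15 to 23 bases from a coding end, downstream positive. Summits were downstream of the end at 48.7% to 52.7% of lncRNA and 53.2% to 54.7% of coding promoters, the lncRNA share being the lower in 5 of 5 libraries. This difference was not tested.

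**Figure D3:**
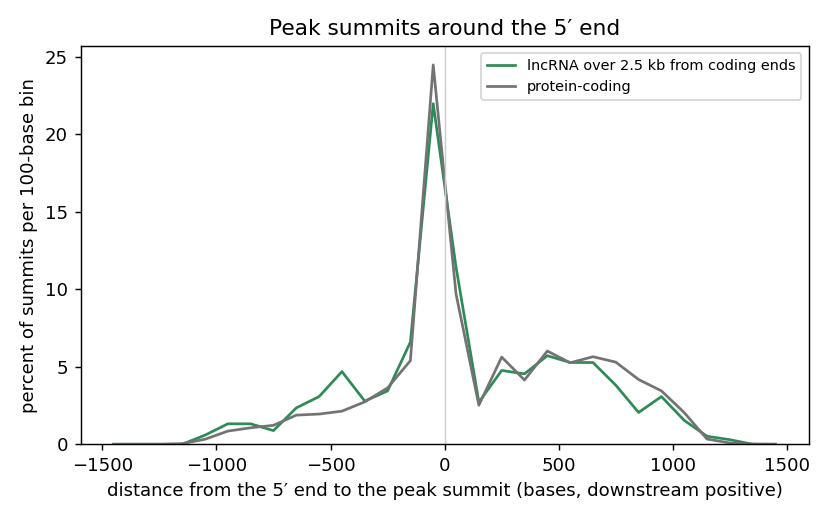
Percent of peak summits per 100-base bin against distance from the 5′ end, downstream positive, for the 273 lncRNA and 4291 coding promoters with a peak in all 5 H3K4me3 libraries. Both lines peak in the 100 bases before the end, at 22.0% and 24.5%, and both are low 100 to 200 bases after it (2.71% and 2.52%).

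The sequence of the promoter went with the mark. The 273 lncRNA promoters had a median GC content of 61.3% over 300 bases, close to the 61.7% of coding promoters marked in all 5, whereas the 13319 lncRNA promoters without a peak had 46.0%. A promoter was called CpG-rich at a GC content of at least 50% and a ratio of observed to expected CpG of at least 0.6. By that measure 70.7% of lncRNA promoters marked in all 5 libraries were CpG-rich, against 52.1% of those marked in 1 to 4, 6.25% of those in none and 81.5% of coding promoters marked in all 5. The share with a peak, averaged over libraries, was 0.696% for lncRNA promoters under 40% GC, 1.26% at 40 to 50%, 3.99% at 50 to 60%, 15.3% at 60 to 70% and 23.7% at 70% or over. Coding promoters went from 6.75% to 48.1% over the first 4 of these bins and were at 36.4% in the last.

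**Figure D4:**
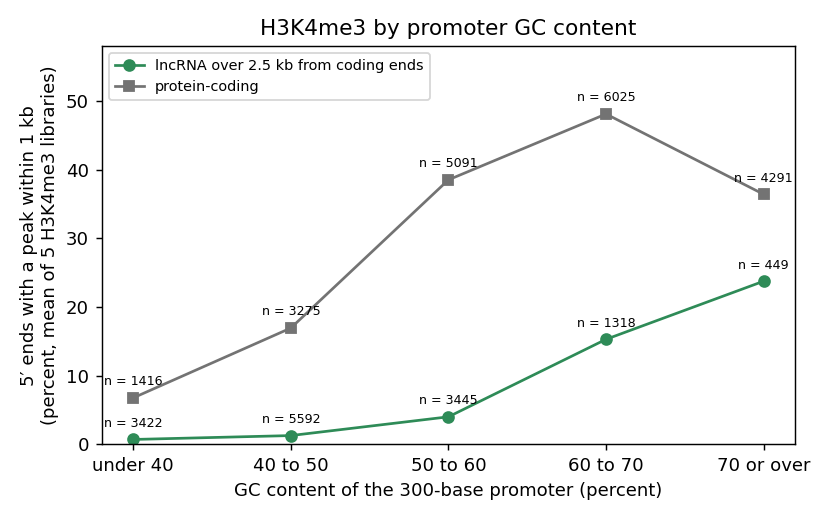
Percent of 5′ ends with a peak within 1 kb, as the mean of the 5 H3K4me3 libraries, by GC content of the 300-base promoter, for lncRNA (circles) and protein-coding genes (squares), with the number of promoters beside each point. The lncRNA points lie below the coding points in each bin, at 0.696% against 6.75% in the lowest and 23.7% against 36.4% in the highest.

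The ratio of the coding to the lncRNA share was smaller among CpG-rich than among other promoters in 5 of 5 libraries. Of 1356 CpG-rich lncRNA promoters, 38.6% carried a peak in at least 1 library, against 70.8% of 11041 CpG-rich coding promoters. Per library the lncRNA share was 30.1%, 22.9% and 19.2% in control replicates 1, 2 and 3 and 29.4% and 26.3% for HA-Bcl-xL replicates 2 and 3, and the coding share was 60.0%, 48.1%, 41.8%, 56.4% and 54.1%. The coding share was thus 2.05 times the lncRNA share on average, with an exact sign-flip permutation p = 0.0625, the smallest possible. At promoters that were not CpG-rich the ratio was 9.75, from lncRNA shares of 1.13% to 1.79% and coding shares of 11.7% to 16.6%, with the same p. The lncRNA and coding promoters thus differed in both classes, in 5 of 5 libraries.

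Many marked lncRNA promoters are not unique in the genome. A second place matching at least 270 of the 300 bases at 95% identity or more was found for 30.4% of the 273, for 15.8% of those marked in 1 to 4 libraries, for 7.52% of unmarked ones and for 1.72% of coding promoters marked in all 5. GENCODE tags 27.8% of the 273 and 4.06% of unmarked lncRNA as overlapping a pseudogene. Short reads from near-identical copies may match both places, and how they were placed is not given in the sources used here. Without promoters that have a second copy, 190 of 13042 lncRNA (1.46%) were marked in all 5 libraries, against 4217 of 19127 coding promoters (22.0%). The median GC content of the 190 was 60.8% and their CpG-rich share was 70.5%. The coding share of CpG-rich promoters with a peak became 2.29 times the lncRNA share, with the same p.

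Pairs on opposite strands and position also went with the mark. Another lncRNA starts within 1 kb on the opposite strand of 38.1% of the 273, 23.2% of those marked in 1 to 4 libraries and 3.51% of unmarked ones. Pairs that point apart and pairs that overlap were not separated. Since such a pair shares its peaks, the 35.0% marked in at least 1 library among the 718 paired ends, against 4.86% of 13508 others, counts many peaks more than once. Of the 273, 87.9% lie outside protein-coding genes, against 66.5% of unmarked lncRNA. The marked share was 8.13% outside coding genes, 2.70% inside one on its strand and 2.68% inside one on the opposite strand. lncRNA with over 5 exons were marked in 14.7% of cases, those with 1 exon in 8.51% and those with 2 in 3.38%. By distance to the nearest coding end the share was 6.11% at 2.5 to 5 kb, 8.25% at 10 to 50 kb and 3.22% beyond 200 kb.

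Short motifs of promoter-binding factors were searched on both strands of the 300 bases, and a match is only a run of letters. The CRE motif TGACGTCA, bound by CREB and ATF proteins, was in 8.06% of the 273, 0.368% of unmarked lncRNA, 0.612% of all lncRNA and 3.40% of coding promoters marked in all 5. It was in 6.32% of the 190 without a second copy. The ETS motif CCGGAAG was in 13.9% of the 273, 2.39% of unmarked lncRNA, 3.00% of all lncRNA and 24.0% of coding promoters marked in all 5. The YY1 motif AAGATGGCG, which marks many housekeeping promoters, was in 2 of the 273 (0.733%), 0.210% of unmarked lncRNA, 0.246% of all lncRNA and 4.73% of those coding promoters. The CCAAT box, bound by NF-Y, was in 43.2% of the 273, 36.6% of all lncRNA and 42.4% of coding promoters marked in all 5. DANCR holds it 4 times in the sequence above. The SP motif GGGGCGGGG was in 18.7% of the 273, 2.79% of all lncRNA and 20.4% of those coding promoters, and DANCR holds it. The TATA motif TATAAA was in 9.16% of the 273, 19.4% of unmarked lncRNA and 5.73% of those coding promoters. The letters of CRE, ETS, YY1 and SP contain CG, and no comparison at matched CpG content was made.

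The lncRNA that ranked highest over the 5 lists were mostly unnamed transcripts. Rank is a peak's place by p-value within its own list. ENSG00000289901 came first with 52, 52 and 33 summit fragments in control replicates 1, 2 and 3 and 38 and 41 for HA-Bcl-xL replicates 2 and 3, but it is also the strongest IgG site among these promoters and is taken up below. ENSG00000259553 and its opposite-strand partner ENSG00000290823 on chromosome 15 share peaks of 46, 35, 33, 32 and 32 fragments, in the same order, and their promoters each have 4 further copies. ENSG00000284707 on chromosome 7 had 28, 20, 28, 27 and 27 fragments. ENSG00000290039 on chromosome 17 had 18, 20, 18, 21 and 19 fragments at an end with a GC content of 43.7%. EMSLR, also on chromosome 7, had 29, 20, 17, 21 and 27 fragments, with summits at -46 to 0 bases from the 5′ end (upstream negative). In each of these the control and HA-Bcl-xL values overlapped, except that the 32 and 32 of ENSG00000259553 lay just under the lowest control value of 33. The widest mark was on chromosome 10 at 75490320, where GLUD1P3 and 3 BMS1P4-related transcripts start back to back and 737 to 928 bases of the window were under peaks of 24, 24, 16, 17 and 21 fragments.

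Known lncRNA were collected in 7 lists by role, 157 names in all, which gave 101 different genes that met the rule for distance. Of these 101, 10 (9.90%, against 1.92% of all lncRNA promoters studied and 14.3% of all gene ends) were marked in all 5 libraries, 27 in 1 to 4 and 64 in none. A peak in at least 1 library was thus found at 36.6% of them, against 6.38% of all lncRNA promoters and 33.4% of all gene ends. The counts of each list below are to be read against these same shares. The first list held lncRNA that host small nucleolar RNA, which guide the chemical modification of ribosomal RNA, and others linked to growth. Of its 19 genes, 5 were marked in all 5 libraries, 11 in 1 to 4 and 3 in none. SNHG21 had 28, 14 and 16 fragments in control replicates 1, 2 and 3 and 24 and 22 for HA-Bcl-xL replicates 2 and 3, with summits at -44 to 35 bases from its 5′ end. SNHG16 had 19, 10, 11, 15 and 12, and SNHG30 had 10, 15, 7, 14 and 14. DANCR, a snoRNA host also linked to progenitor states, had 13, 5, 10, 8 and 10 with summits 658 to 759 bases into the gene. EPB41L4A-AS1 had 10, 10, 9, 10 and 11, the narrowest spread of these 5, with summits 730 to 910 bases in. The control and HA-Bcl-xL values overlapped for each of the 5, and for EPB41L4A-AS1 they met at 10. SNHG8, SNHG15, SNHG26, SNHG29 and SNHG32 each lacked a peak within 1 kb in control replicate 3 alone, where the nearest peak began 1092, 1070 and 1464 bases into SNHG15, SNHG26 and SNHG29, 2618 bases into SNHG32 and 313041 bases from SNHG8. SNHG5 lacked one in control replicate 2 alone, with the nearest 1103 bases into the gene, and SNHG12 in HA-Bcl-xL replicate 3 alone, with the nearest 1077 bases in.

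Of 9 nuclear and chromatin lncRNA, 3 were marked in all 5 libraries (1.92% of all lncRNA promoters and 14.3% of all gene ends were), 2 in 1 to 4 and 4 in none. NORAD, which binds Pumilio proteins and guards genome stability, had 21, 21 and 16 fragments in control replicates 1, 2 and 3 and 15 and 20 for HA-Bcl-xL replicates 2 and 3, with overlapping groups. TERC, the RNA template of telomerase, had 11, 8 and 6 against 15 and 16, and is described with the tests below. MALAT1 and NEAT1, both abundant nuclear RNA, carried no peak within 1 kb of their most 5′ annotated end. The nearest peak began 2480 bases downstream of that end of MALAT1 in control replicate 1 and 3122 to 4965 in control replicate 3 and both HA-Bcl-xL libraries, lay at -20595 bases in control replicate 2, and in 4 of 5 libraries a peak lay within 1 kb of the start of another MALAT1 transcript. At NEAT1 the nearest peak in HA-Bcl-xL replicate 2 began 1256 bases downstream, while in the other 4 libraries it lay at 77988 bases (control replicate 3) or -36113 bases.

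Of 32 microRNA hosts, 2 were marked in all 5 libraries and 8 in 1 to 4, against 1.92% of all lncRNA promoters in all 5 and 6.38% in at least 1, and 22 in none. MIR762HG, on the strand opposite to a coding gene, had 22, 17 and 17 fragments against 27 and 19. MIR7-3HG, the host of a microRNA 7 copy abundant in endocrine cells, had 13, 6 and 10 against 11 and 15, with summits 64 to 93 bases after its 5′ end. In both hosts the control and HA-Bcl-xL ranges overlapped. MIR181A2HG had 15 and 9 in control replicates 1 and 2 and 13 and 12 for HA-Bcl-xL replicates 2 and 3, with no peak in control replicate 3. MIR222HG had 9, 8, 9 and 9 in the same 4 libraries and MIR9-1HG had 9, 5, 8 and 7. At MIR17HG, host of the miR-17-92 cluster, the nearest peak began 1375 to 1660 bases into the gene in 4 libraries, outside the window. MIR34AHG, host of the p53 target miR-34a, had none at its most 5′ end but a peak near another of its transcripts in 5 of 5 libraries.

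In the remaining 4 lists the counts stand beside a background of 6.38% of all lncRNA promoters and 33.4% of all gene ends with a peak in at least 1 library. Of 15 neural, endocrine and endoderm lncRNA, 1 was marked in all 5 libraries (MIR7-3HG), 1 in some (LINC00261, an endoderm lncRNA beside FOXA2, with 15 fragments in control replicate 1 and 15 in HA-Bcl-xL replicate 2) and 13 in none, DLX6-AS1 and MIAT among them. Of 9 imprinted lncRNA, 8 including H19 and MEG3 had no peak and KCNQ1OT1 had one in 2 libraries. Of 7 p53 and DNA damage lncRNA, 1 was marked in all 5 (NORAD), 1 in 1 to 4 (SNHG15) and 5 in none. Of 25 cancer-associated lncRNA, 1 was marked in all 5, 5 in 1 to 4 and 19 in none. Among those in 1 to 4 libraries, HEIH had 22 and 12 fragments in control replicates 1 and 2 and 15 and 12 for HA-Bcl-xL replicates 2 and 3, and GHET1 had 11, 14, 17 and 12 in the same libraries. HCP5 had 6 and 6 in control replicates 2 and 3 and 7 and 3 in the HA-Bcl-xL libraries. CYTOR had a peak within 1 kb only in HA-Bcl-xL replicate 3, with 13 fragments, and one 1229 to 1600 bases into the gene in the other 4 libraries. The list counts thus depend on which annotated 5′ end is taken.

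**Figure D5:**
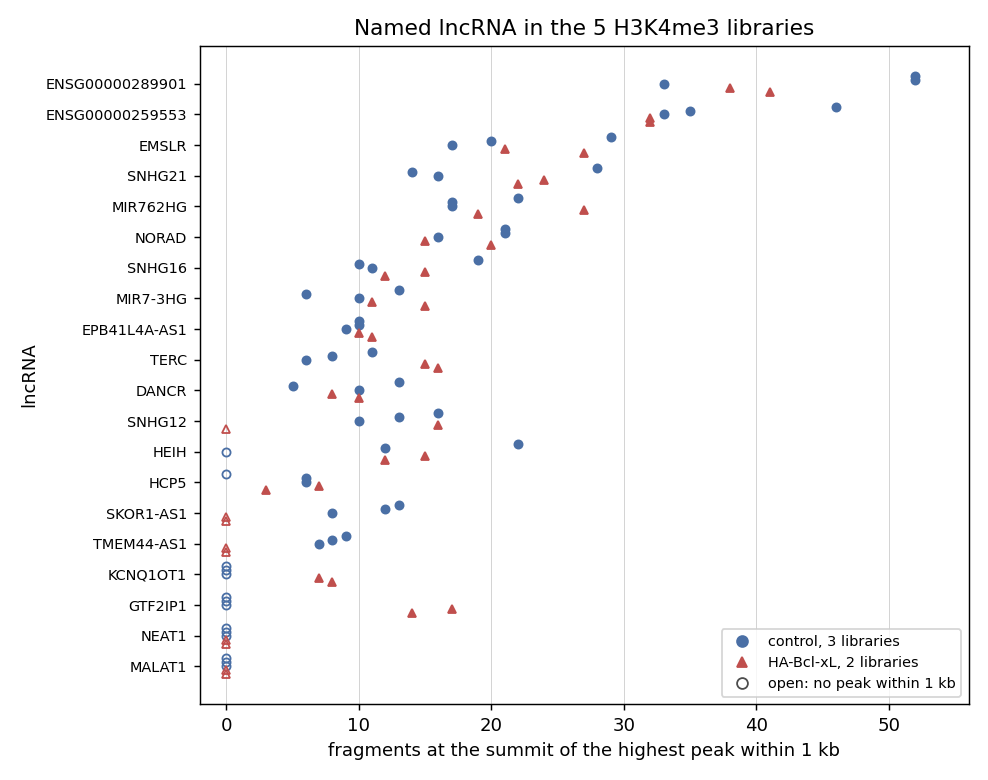
Fragments at the summit of the highest peak within 1 kb for 20 named lncRNA in the 3 control (circles) and 2 HA-Bcl-xL (triangles) H3K4me3 libraries. Open symbols stand at 0 where no peak was called, which is not a count of 0 fragments, and groups overlap for most of the lncRNA marked in all 5 libraries.

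The comparison of HA-Bcl-xL with control cells asked whether Bcl-xL overexpression went with a change of H3K4me3. No difference beyond the spread between libraries was found at lncRNA promoters. The marked share was 3.59% ± 0.828 (SD, n = 3) in control and 4.10% ± 0.219 (SD, n = 2) in HA-Bcl-xL cells, a difference of 0.504 percentage points with exact permutation p = 0.6, where 0.2 is the smallest p that 2 against 3 libraries allow. The HA-Bcl-xL values lay inside the control range. With lists cut to equal length the difference was 0.0867 percentage points. The share of peaks at lncRNA promoters was 4.02% ± 0.0788 (SD, n = 3) in control and 3.96% ± 0.0844 (SD, n = 2) in HA-Bcl-xL cells, with exact permutation p = 0.4. Its direction changed with the processing, as given in the closing section. The ratio of the lncRNA to the coding share was 1.03 times as high in HA-Bcl-xL cells (log2 0.05, exact permutation p = 0.4), and the log2 ratio was 0.0055 with equal list lengths. Adjusted over the 6 comparisons these p-values were 0.6, 0.48 and 0.48.

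Single lncRNA that carried a peak only in one line were few. A peak in both libraries of HA-Bcl-xL and none of control cells was found for 21, 0.148% of lncRNA promoters against 0.592% of all gene ends, and the reverse, all 3 control and neither HA-Bcl-xL library, for 8, 0.0562% against 0.176%. Since lncRNA promoters are marked less often in general, these are also given as shares of the ends with a peak in at least 1 library: 21 of 907 lncRNA (2.32%) against 229 of 12930 gene ends (1.77%), and 8 of 907 (0.882%) against 68 of 12930 (0.526%). Neither count carries a test, and each moved with single libraries. The first became 53 without control replicate 1, 82 without HA-Bcl-xL replicate 2 and 93 without HA-Bcl-xL replicate 3. The second became 13 and 24 without control replicates 2 and 3, and 25 and 14 without HA-Bcl-xL replicates 2 and 3.

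Of the 21, GTF2IP1, a relative of the transcription factor gene GTF2I with 2 further copies of its promoter, had the highest rank with 17 and 14 fragments in HA-Bcl-xL replicates 2 and 3. DPY19L2P3 had 9 and 15, with a control replicate 1 peak 1225 bases from its end and thus just outside the window. ENSG00000292309 had 7 and 10, ENSG00000287475 had 8 and 7 and ENSG00000231953 had 4 and 7. KCNQ1OT1, the imprinted antisense transcript inside KCNQ1, had 7 and 8, with the nearest control peak 182629 bases away or farther. Of the 8, GUSBP1 and its divergent partner ENSG00000249359 shared peaks of 15, 11 and 6 fragments in control replicates 1, 2 and 3. Their promoters have 5 and 2 further copies. With the start of any GUSBP1 transcript counted, 4 of the 5 H3K4me3 libraries had a peak. SKOR1-AS1 had 13, 12 and 8 fragments at -845 to -886 bases from its end (upstream negative), and the nearest HA-Bcl-xL peaks began at -1379 and -1380 bases. TMEM44-AS1 had 9, 8 and 7 and CROCCP3 had 10, 4 and 7.

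The height of the mark was compared over the 4564 gene 5′ ends marked in all 5 libraries, 273 of them lncRNA, with limma on log2 summit fragments centred on each library's median. No end passed an adjusted p of 0.05 (0 of 4564, 0%), and the smallest limma adjusted p was 0.437 over all ends and 0.731 over the lncRNA. At an unadjusted p under 0.05 there were 13 lncRNA (4.76%), against 5.85% of all ends fitted. The median log2 difference, HA-Bcl-xL minus control, was -0.01 over the 273 lncRNA and -0.01 over all ends, and it was positive for 130 of the 273. Centring sets that balance: without it the median was 0.12 over the lncRNA and 0.12 over all ends, and 194 of the 273 were positive, with 0 ends called. Among the 273 lncRNA the smallest p was at TERC, with 11, 8 and 6 fragments in control and 15 and 16 in HA-Bcl-xL cells, groups that do not overlap, and a centred log2 difference of 0.81 (SE 0.241, limma adjusted p = 0.731). ENSG00000290683 followed with 10, 6 and 8 against 16 and 15 (log2 0.85, SE 0.255, limma adjusted p = 0.731). In the other direction ENSG00000272366 had 17, 19 and 10 against 9 and 11 (log2 -0.70, SE 0.263, limma adjusted p = 0.807), with groups that overlap. NPEPPSP1 was also lower in HA-Bcl-xL cells, with 25, 21 and 11 against 12 and 13. FAM88E was higher there, like TERC, with 13, 8 and 6 against 12 and 19 (log2 0.69). The groups overlap for both NPEPPSP1 and FAM88E. With 200 simulated differences among 4564 ends, limma recovered 60% at a log2 difference of 1, with 5 calls among unchanged ends, and 100% at 2, with 17 such calls. The simulated log2 values had normal noise of the same spread at every end and were not whole-number counts. Recovery at ends of few fragments was not simulated on its own, nor were smaller differences.

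IgG peaks recurred at 3 lncRNA promoters (0.0211%, against 0.00775% of all gene ends and 0 of 20098 coding ones). ENSG00000289901, 362 kb from the nearest coding end on chromosome 13, had 48, 67 and 48 IgG fragments in control and 107, 77 and 62 in HA-Bcl-xL cells, beside H3K4me3 counts of 33 to 52. ENSG00000289623 had an IgG peak in 4 libraries, with 3 fragments in control replicate 1 and 10, 16 and 11 for HA-Bcl-xL replicates 1, 2 and 3, beside H3K4me3 peaks of 6, 9 and 5 in control replicate 3 and the HA-Bcl-xL libraries. LINC01596 had 8 and 7 IgG fragments in control replicates 1 and 2 and H3K4me3 peaks of 7, 5 and 3. The mark at these 3 cannot be told apart from background. In all, 89 lncRNA promoters (0.626%, against 0.729% of all gene ends) had an IgG peak in at least 1 library, and among the named lncRNA above SNHG30 had one, of 4 fragments, in HA-Bcl-xL replicate 2.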

How the data were processed

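H3K4me3 and IgG CUT&RUN libraries were analysed as the deposited peak lists, 1 per library and not pooled. Per the submitters' processing notes, bcl2fastq 2.20, Trimmomatic 0.36, Bowtie2 2.2.9, MACS2 2.1.1 and deepTools 3.5.1 were named, with the build hg19. Their settings, duplicate treatment and peak-calling control are not given in the sources used here. The authors' deposited values per peak are a score, a fold enrichment (ratio), a −log10 p-value and a −log10 q-value, of which the score is the whole part of 10 times the −log10 q-value. The deposited summit offset was used as a position. The deposited lists held no −log10 q-value under 2.

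Gene ends came from GENCODE release 44 lifted to GRCh37. A promoter was called marked when any base of a peak lay within 1 kb of the gene's most 5′ end. Summit fragments were the whole number n for which (n + 1) / (background + 1) gave the fold and the Poisson tail above n gave the p-value, and 95.8% to 99.97% of peaks per list were solved to within 0.001 (100% of 2000 simulated peaks). These numbers may count fragments or single reads and may include PCR copies, which the sources used here do not record. Second copies of promoters were sought with minimap2 2.31-r1302. Groups came from the labels. Shares were compared by two-sided exact permutation tests over libraries (scipy 1.17.1), and summit fragments by limma 3.58.1 in R 4.3.3 with Benjamini-Hochberg adjustment, tested on simulated data. Alternatives covered thresholds, list length, IgG overlap, windows, transcripts, centring, a replicate block and each library left out, and removal of promoters with a second copy was added after seeing the data.

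The members, lists, tests and naming rule were chosen with earlier results of these data known. Named were lncRNA of the 7 lists, the 10 with the highest mean rank and the 5 widest among those in all 5 libraries, 5 per line found only there, 3 per direction with the smallest limma p, and up to 5 with IgG peaks in 2 or more libraries. KCNQ1OT1 was named through its list. Not all such lncRNA are described. A marker gene and some promoter sequences are not reported here.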

Additional observations from a re-analysis of the deposited data

How the results depend on the processing

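Under other settings, 100 of 107 recomputed values were labelled the same, as were 44 of 51 with 1 library left out. For exact tests this meant the same sign and the same side of a p of 0.05. None of these tests could give a p below 0.0625, so only the sign could change. For counts without a test it meant a change within a fixed fold, and for limma an equal number of lncRNA called. The difference in the share of peaks at lncRNA promoters, HA-Bcl-xL minus control, was -0.0624 percentage points and became 0.0360 with −log10 q of at least 5, 0.107 with equal list lengths, 0.0543 with at least 5 fragments and 0.0557 without promoters that have a second copy. The 21 lncRNA found only in HA-Bcl-xL cells became 12 with equal list lengths, and the 8 found only in control cells became 2 with −log10 q of at least 5 and 4 without second copies. The cause was not tested. With 1 library left out these counts ran from 28 to 93 and from 12 to 25, since fewer libraries had to agree. The 273 marked in all 5 libraries ran from 279 to 340, and limma called 0 lncRNA in each fit. Other left-out ranges were 0.137 to 0.952 percentage points for the marked share, -0.122 to -0.00274 for the share of peaks, 0.02 to 0.08 for the log2 ratio of lncRNA to coding shares between lines, -3.23 to -3.20 for that ratio within libraries, and 4.03 to 4.47 and 6.10 to 6.74 for H3K4me3 over IgG (log2) in control and HA-Bcl-xL cells.

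Same-numbered libraries were not shown to be pairs: the deviations of replicates 2 and of replicates 3 correlated at 0.0119 and 0.00741 over 4564 ends. With only 2 HA-Bcl-xL libraries, the deviations of replicate 3 are those of replicate 2 with the sign reversed. Centring also removes library-wide effects, so these values cannot decide the pairing. With the replicate block, limma called 0 lncRNA (smallest adjusted p = 0.408) and 1 of 4564 ends, and the marked share differed by 0.952 percentage points (p = 0.5 by exact sign flips, the lowest that 2 pairs allow). Peaks of few fragments limit what can be called: a lncRNA without a peak is below the calling threshold, not shown to lack the mark.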
